A study of Mus musculus with 21 samples.

Results

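The tRNA AsnGTT genes are the genes that tRNAscan-SE predicted in the mouse genome (mm9) for the asparagine tRNA that reads its codons with the anticodon GTT. They were chosen by the ending of the gene name. This gave 175 of the 3283 genes in the table of RNA polymerase III (Pol III) counts, and 64 of the 1143 genes in the tRNA sequencing table, where the family held 634 of 53875 entries (480 of 39316 read sequences). All 64 were among the 175. The family was put forward because of its share of 5′ fragments, the ends of those fragments and its Pol III occupancy in these same libraries, so every difference between genotypes in those measures is given as a description and carries no test.

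All material was total back skin of male mice at postnatal day 25, when hair follicles enter the growth phase (anagen), on a C57Bl6/J CBA F1 background. NSun2 -/- mice carried a gene trap in NSun2 (clone D014D11), and WT mice came from the same breedings. Small RNA sequencing of tRNAs and bisulphite sequencing of RNA each had 4 WT and 4 NSun2 -/- libraries, described as independent biological replicates. Chromatin immunoprecipitation of POLR3A, the largest Pol III subunit, had 2 WT libraries and 1 NSun2 -/- library, with 1 input library per genotype, each from a pool of 3 mice. The library name of the first WT Pol III sample says PolII, whereas its antibody label names POLR3A. Skin holds many cell types, so fewer cells of a type and less RNA per cell cannot be told apart.

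The label was checked in the bisulphite files, in which each listed cytosine had at least 10 reads. Nsun2 had 23 to 48 listed cytosines in the WT libraries and 0 in each of the 4 NSun2 -/- libraries. Krt5 and Krt14, keratins of basal epidermal cells, had 293 to 475 and 234 to 377 listed cytosines per library. Krt1 and Krt10, keratins of differentiating epidermis, had 23 to 202 and 155 to 303, and the dermal collagens Col1a1 and Col3a1 had 1845 to 3286 and 1222 to 2065.

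A tRNA gene is transcribed by Pol III into a precursor whose 5′ leader and 3′ trailer are cut off, after which the sequence CCA, to which the amino acid is attached, is added to the 3′ end. Many bases are then modified. Modified bases on the pairing face make reverse transcriptase stop or insert another base. The asparagine tRNA, like those for aspartate, histidine and tyrosine, has a guanosine as first anticodon base that can be exchanged for queuosine. NSun2 methylates cytosines at the variable loop of many tRNAs, and tRNAs can be cut at the anticodon loop into a 5′ and a 3′ fragment.

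The sequence below is that of 9 of the 10 AsnGTT loci placed here, read from the mm9 genome. It is shown because nearly all AsnGTT reads came from it, and capitals mark the anticodon.

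chr2.trna1947-AsnGTT: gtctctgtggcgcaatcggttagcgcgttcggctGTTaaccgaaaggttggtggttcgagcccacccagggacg

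Nucleotides are counted here from 1 at the first base of the tRNA. The D loop has 1 extra base (20a), so that from nucleotide 22 on the standard tRNA number is 1 lower, and the anticodon at nucleotides 35 to 37 has the standard numbers 34 to 36. In all 10 loci the bases at the standard positions 48, 49 and 50, where NSun2 methylates cytosines in other tRNAs, were T, G and G. The AsnGTT gene therefore has no cytosine there.

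The 9 identical copies lay on 5 chromosomes, 4 on the plus and 5 on the minus strand. They were chr1.trna1006 (chr1:172964073-172964146, minus), chr2.trna1947 (chr2:18508671-18508744, minus), chr5.trna1043 (chr5:150040577-150040650, minus), chr10.trna381 (chr10:79711904-79711977, plus), chr11.trna1446 (chr11:97563763-97563836, minus), and a cluster on chromosome 3 with chr3.trna289 (chr3:96206141-96206214, plus), chr3.trna294 (chr3:96255348-96255421, plus), chr3.trna298 (chr3:96301704-96301777, plus) and chr3.trna750 (chr3:96263061-96263134, minus). The position of chr3.trna294 was assigned by elimination, as the only plus-strand copy that no other named gene took. The tenth locus, chr3.trna757 (chr3:96138538-96138611, minus), differed from the common sequence by T6C, T21C and A68G. chr10.trna381 overlapped an exon of Ndufs7, which encodes a subunit of respiratory complex I, and chr3.trna294 lay within BC107364 outside its exons. The other 8 loci overlapped no annotated gene (GENCODE M1).

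Pol III occupancy gave the identical copies separate values, although reads that matched several of them were distributed over them. The flanks of chr3.trna294 and chr3.trna750, identical over 25 nt on each side, do not separate those 2 genes. A gene was counted as bound when both WT libraries had at least 10 reads and their mean, in RPM (reads normalised to the library total), was at least 2-fold the WT input, with 1 count added to each. By this rule 6 AsnGTT genes were bound, 3.43% of the family, where 6.76% of all genes in the table were bound. The remaining 165 predicted AsnGTT genes without a placed locus had at most 14 reads in a WT and at most 20 in the NSun2 -/- library, with a median of 3 reads in each of the 3 Pol III libraries, and none was bound. The family with anticodon ATT (22 genes) had 0 bound genes.

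chr5.trna1043 had the highest level, with 3065 and 5955 RPM in the WT libraries (113 and 376 reads) and 6329 RPM (602 reads) in the NSun2 -/- library. Its inputs were 1319 RPM in WT and 414 RPM in NSun2 -/-, from 21 and 6 reads. chr1.trna1006 followed, with 2604 and 3896 RPM in WT and 4174 RPM in NSun2 -/-. chr10.trna381, chr11.trna1446 and chr2.trna1947 had 2767, 2089 and 1736 RPM in the first WT library and 3722, 4086 and 1647 RPM in the second. In NSun2 -/- these 3 genes had 3648, 4332 and 2513 RPM. chr3.trna298 was the lowest of the bound genes, with 1139 and 2059 RPM in WT and 1766 RPM in NSun2 -/-. chr5.trna1043 was the highest in all 3 Pol III libraries, while chr1.trna1006, chr10.trna381 and chr11.trna1446 changed places between the WT libraries, so their order is within that spread.

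The other 4 loci, all on chromosome 3, had WT means below their WT input. chr3.trna294, at 244 and 1330 RPM in WT and 841 RPM in NSun2 -/-, had 1068 RPM in the WT input. chr3.trna289, chr3.trna750 and chr3.trna757 had WT means of 721, 716 and 338 RPM, against 880, 1382 and 377 RPM in the WT input. In NSun2 -/- chr3.trna294 had 841 RPM against 621 RPM in that genotype's input (9 reads). The other 3 had 694, 841 and 442 RPM, against 207, 414 and 621 RPM in the same input, which rests on 3, 6 and 9 reads. chr3.trna289, chr3.trna294 and chr3.trna750 thus stood above the NSun2 -/- input though not above the WT input on average, with 1 library and few input reads behind it.

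**Figure D1:**
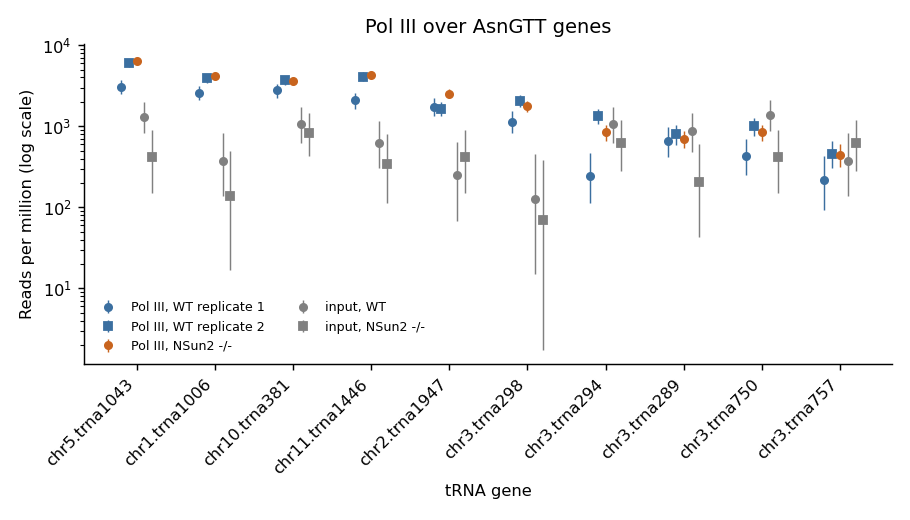
Pol III and input RPM (log scale) over the 10 placed AsnGTT genes, ordered by their WT mean, with exact Poisson 95% intervals that cover counting error only. The 6 genes on the left have Pol III values above their WT input, from 1139 RPM upward, whereas the 4 on the right have WT means below it.

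Summed over the 6 bound genes, Pol III reads made up 1.34% and 2.14% of the WT libraries and 2.28% of the NSun2 -/- library. The inputs had 0.377% in WT and 0.221% in NSun2 -/-. The log2 ratio of NSun2 -/- to the WT mean was 0.39, and the log2 ratio between the 2 WT libraries was 0.67. The summed difference between genotypes was thus smaller than that between the WT replicates, and with 1 NSun2 -/- library it has no replicate check. Against the first WT library alone the ratio was 0.76, and against the second alone it was 0.09. Per gene it ran from 0.13 (chr3.trna298) to 0.56 (chr2.trna1947), beside a median of 0.16 over all 222 bound genes. The log2 ratio of the second to the first WT library ran per gene from -0.08 (chr2.trna1947) to 0.96 (chr11.trna1446). For chr2.trna1947 the genotype difference was therefore larger than that between the WT libraries.

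In the tRNA sequencing table the AsnGTT family held 14239, 23615, 14058 and 16295 counts in the WT libraries and 17618, 16559, 21568 and 16486 counts in the NSun2 -/- libraries. These were 0.0451% to 0.136% of all counts, and the genotypes overlapped. Totals per library ran from 17352126 to 36749727 counts, the largest being the second NSun2 -/- library. The 6 genes with a placed locus held 96.2% of the family's counts and chr2.trna1947 alone held 74.1%, but this does not show which gene the RNA came from. The table lists 1 read sequence at several copies: the most counted 5′ fragment stood with 40, 30, 62 and 60 WT counts at each of chr10.trna381, chr3.trna289, chr3.trna294 and chr3.trna298, and, as reverse complement, with 200, 150, 310 and 300 at chr2.trna1947, exactly 5 times as many. The placed loci chr1.trna1006, chr3.trna757, chr5.trna1043 and chr11.trna1446 had no entries in it. Of these, chr1.trna1006, chr5.trna1043 and chr11.trna1446 were bound by Pol III. The other 58 genes held 3.83% of the family's counts, 21 to 761 each over all 8 libraries, and the sequences of 57 of them matched no placed locus within 4 edits. chr5.trna1001 had the most of these.

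Because of this listing, counts were also taken with each read sequence counted once per family, from its smallest entry and divided by the largest number that divides all 8 of its counts. For a sequence seen in 1 library this divisor is its own count, so sparse sequences are scaled down most. AsnGTT sequences that could not be placed went from a mean of 673 to 92 counts in WT and from 780 to 25 in NSun2 -/-. Shares below are of deposited counts unless this is stated. Placed sequences fell into 5′ fragments (25 to 40 nt from nucleotide 1), 3′ fragments that ended in CCA, and the rest. No listed sequence had CCA and covered at least 90% of the gene, and the longest sequence placed within the tRNA was 67 nt. The table lists only sequences with at least 20 counts over the 8 libraries, the study's alignment tolerated 2 mismatches, and AsnGTT reads carried substitutions at 3 positions, described below. Sequences with more differences were listed all the same, since 3 placed sequences without an insertion or deletion had over 2 substitutions and 15.9% of placed counts had an insertion or deletion.

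The fragments below were picked from the most counted ones of each class, with bases that differ from the gene in capitals. Versions with A59G, some of them more counted than the 3′ fragment from nucleotide 36, are not shown. They are shown because their ends and their substitutions carry the comparisons below.

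5′ fragment of 33 nt: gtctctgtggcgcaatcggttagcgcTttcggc
5′ fragment of 34 nt: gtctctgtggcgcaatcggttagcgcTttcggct
5′ fragment with a second substitution: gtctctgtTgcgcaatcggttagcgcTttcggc
3′ fragment from nucleotide 36: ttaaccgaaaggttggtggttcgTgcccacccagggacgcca
3′ fragment from nucleotide 40: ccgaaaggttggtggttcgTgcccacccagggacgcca
3′ fragment from nucleotide 41: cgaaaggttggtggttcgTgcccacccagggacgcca
Internal fragment without the last base and CCA: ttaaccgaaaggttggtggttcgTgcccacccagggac

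5′ fragments made up a larger share of AsnGTT counts in NSun2 -/- skin than in WT. The shares were 17.2%, 13.8%, 25.4% and 17.0% in the WT libraries (18.3% ± 4.93, SD, n = 4) and 37.2%, 28.7%, 43.3% and 47.5% in the NSun2 -/- libraries (39.2% ± 8.15, SD, n = 4). All 4 NSun2 -/- libraries lay above all 4 WT libraries. Among the 41 families with enough 5′ fragments to be compared (at least 50 counts in each library), 34.1% lay wholly above WT in this way, and the NSun2 -/- mean of AsnGTT was 2.14 times its WT mean, the 11th highest ratio, beside a median of 1.24. With each sequence counted once the shares were 9.19% to 15.2% in WT and 20.5% to 34.7% in NSun2 -/-, again without overlap, as in 33.3% of 36 families.

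As a share of all tRNA sequencing counts, AsnGTT 5′ fragments were 0.0136%, 0.0188%, 0.0147% and 0.0124% in WT and 0.0330%, 0.0129%, 0.0394% and 0.0446% in NSun2 -/-. The means were 0.0149% ± 0.00278 and 0.0325% ± 0.0139 (SD, n = 4 each). Here the genotypes overlapped, where 14.6% of the families lay wholly above WT, because the second NSun2 -/- library lay within the WT range while the other 3 lay above it. The fit over all isoacceptor families (edgeR) gave a log2 fold change of 1.22 ± 0.33 (SE, n = 4 against 4), the third highest of 42 families, whose median was 0.02. Without the second NSun2 -/- library it was 1.504.

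3′ CCA fragments went the other way within the family. Their shares of AsnGTT counts were 61.8%, 76.5%, 60.8% and 64.6% in WT (65.9% ± 7.20, SD, n = 4) and 38.6%, 27.6%, 32.7% and 37.2% in NSun2 -/- (34.02% ± 4.96, SD, n = 4). All NSun2 -/- libraries lay below all WT libraries, as in 43.9% of the 41 families compared, and as in 55.6% of 36 with each sequence counted once. The ratio of 5′ to 3′ CCA counts was 0.278, 0.181, 0.417 and 0.263 in WT and 0.964, 1.04, 1.33 and 1.28 in NSun2 -/-. With each sequence counted once it was 0.117 to 0.242 in WT and 0.603 to 0.838 in NSun2 -/-, again without overlap. This ratio was not computed for other families, so how many of them separate in the same way is not known.

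The direction of the 3′ CCA fragments depended on the scale. As a share of all tRNA sequencing counts they were 0.0588% ± 0.0308 in WT and 0.0278% ± 0.0105 in NSun2 -/- (SD, n = 4 each), without overlap, as in 48.8% of the families, but with overlap when each sequence was counted once. The edgeR log2 fold change was -1.08 ± 0.53 (SE) against library totals, and 0.26 ± 0.22 (SE) against the 3′ CCA fragments of the 44 families fitted. In the 41 families with at least 50 such counts in each library, their share of the library was lower in NSun2 -/- (median ratio 0.445). AsnGTT was thus near the middle of the families in 3′ CCA fragments and near the top in 5′ fragments.

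**Figure D2:**
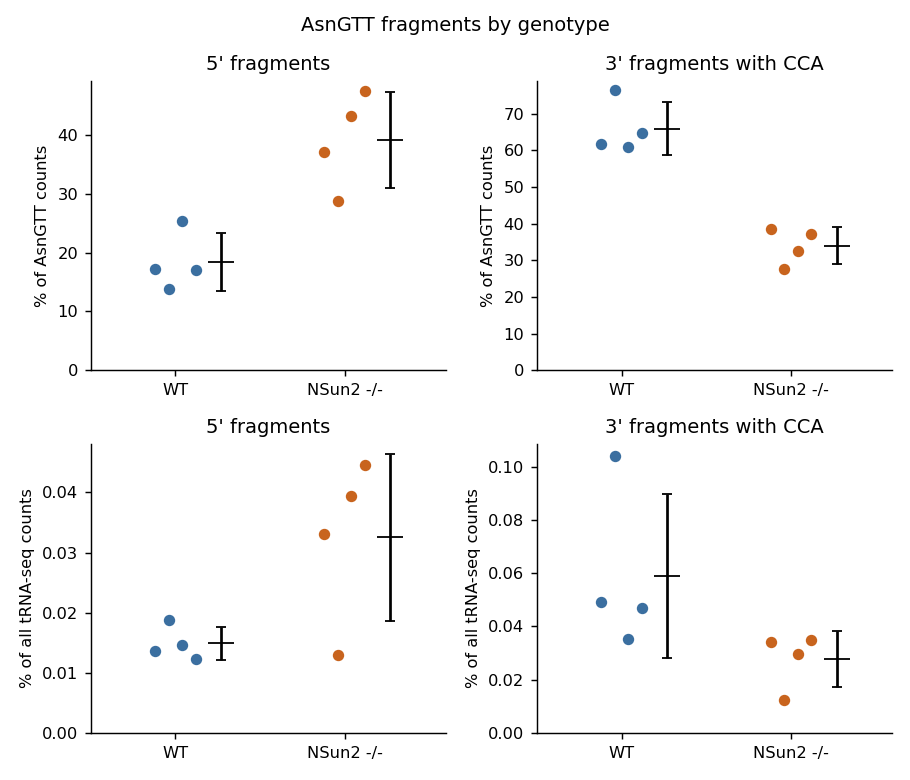
AsnGTT 5′ fragments (left) and 3′ CCA fragments (right) in the 8 tRNA sequencing libraries, as percent of AsnGTT counts (top) and of all tRNA sequencing counts (bottom). Points are libraries, and the bar beside them is the mean with its SD (n = 4). The NSun2 -/- points are all higher at the top left (28.7% or more, against at most 25.4%) and all lower at the top right, whereas at the bottom left 1 of them lies among the WT points.

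The remaining placed reads lay inside the tRNA and made up 18.5%, 5.68%, 9.38% and 13.7% of AsnGTT counts in WT and 18.8%, 38.2%, 19.8% and 13.1% in NSun2 -/-, with overlap. Many of them began at nucleotides 35 to 38 and stopped at 72 to 74, without CCA. These were 12.1%, 1.98%, 3.07% and 8.19% of AsnGTT counts in WT and 9.77%, 29.8%, 13.0% and 7.50% in NSun2 -/-. The second NSun2 -/- library, which had the fewest 5′ and 3′ CCA fragments of its genotype relative to the family, held the most of them. Sequences ending in the first 2 bases of CCA were listed at chr2.trna1947 alone, whose trailer begins with the same 2 bases, so the trailer and a partial CCA cannot be told apart.

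The 5′ fragments ended just before the anticodon. The share ending at nucleotide 33 (standard 32) was 55.03%, 35.8%, 53.3% and 49.7% in WT and 63.6%, 74.2%, 66.02% and 61.8% in NSun2 -/-, with means of 48.4% ± 8.74 and 66.4% ± 5.51 (SD, n = 4 each). The groups did not overlap. The difference of 18.0 percentage points was 3.13 points in fragments with no mismatch and 2.03 points with every listed sequence given equal weight. In 40 families compared at the same distance from the anticodon, 7.5% lay wholly above WT. The share ending 1 base later, at nucleotide 34, was 40.6% ± 5.54 in WT and 30.4% ± 7.16 in NSun2 -/- (SD, n = 4 each), and the groups overlapped, though not with each sequence counted once (42.9% and 31.4%).

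Ends inside the anticodon were fewer in NSun2 -/-. They made up 8.14%, 16.1%, 5.61% and 11.2% of 5′ fragments in WT and 2.07%, 4.77%, 2.08% and 1.56% in NSun2 -/-. All NSun2 -/- libraries lay below WT, as in 10% of the 40 families. The difference was carried by fragments ending at nucleotides 36 and 37. Those ending at 37, the last anticodon base, were 3.88%, 8.68%, 3.45% and 4.54% in WT and 0.0762%, 1.51%, 0.386% and 0.459% in NSun2 -/-. Those ending at 35, the first anticodon base, were 0.666% in WT and 0.734% in NSun2 -/- on average, with overlap.

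The 3′ CCA fragments began at 2 places downstream of these ends, and a further group began upstream of them. Starts at nucleotide 34 or before made up 19.7% ± 8.40 in WT and 26.6% ± 8.61 in NSun2 -/- (SD, n = 4 each), with overlap. The largest share of these was at nucleotide 26 (7.71% and 9.92%). Counted with each sequence once, the upstream starts were 5.52% and 6.90%. Starts at nucleotide 36, the second anticodon base, made up 9.50%, 4.90%, 8.64% and 6.58% of 3′ CCA counts in WT and 16.3%, 19.8%, 15.8% and 16.3% in NSun2 -/-, without overlap (7.40% ± 2.07 and 17.1% ± 1.82, SD, n = 4 each). Starts at nucleotides 39 to 42, downstream of the anticodon, made up 67.1% ± 12.3 in WT and 48.6% ± 8.13 in NSun2 -/- (SD, n = 4 each), with overlap. Nucleotide 39 ends the anticodon loop, and 40 to 42 lie in its stem. Most of this group began at 40 and 41 (28.9% and 24.2% in WT, 20.2% and 18.8% in NSun2 -/-). Nucleotide 39 held 13.6% and 9.09%. With each sequence counted once, starts at 39 to 42 were 66.1% to 83.02% in WT and 51.9% to 62.0% in NSun2 -/-, without overlap. Starts of 3′ CCA fragments were not compared in other families. Whether the separations at nucleotide 36 and at 39 to 42 are common among families is therefore not known.

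**Figure D3:**
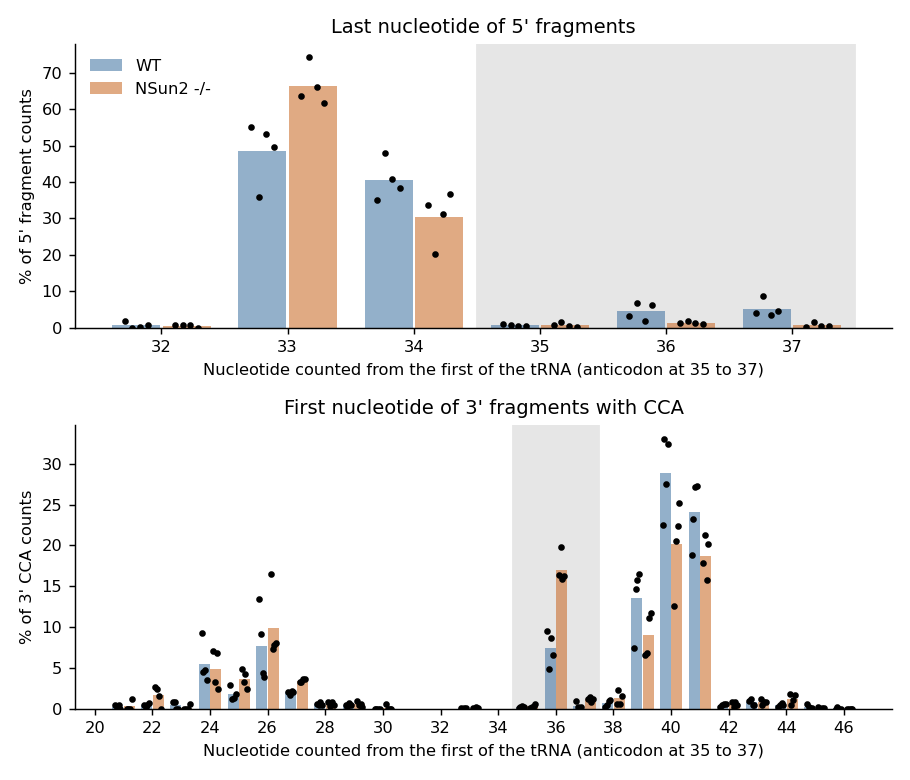
Share of AsnGTT 5′ fragments by their last nucleotide (top) and of 3′ CCA fragments by their first (bottom, starts from 20 to 46), in percent of each fragment class. Bars are means of 4 libraries, points are libraries, and the grey band is the anticodon. NSun2 -/- bars are higher at end 33 (66.4% against 48.4%) and at start 36 (17.1% against 7.40%), and lower at ends 36 and 37.

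Substituted bases were most frequent at 3 positions. These were the G at nucleotide 9, the G at nucleotide 27 (standard 26) and the A at nucleotide 59 (standard 58), where tRNAs commonly carry methylated purines. At every other nucleotide the mean was at most 3.34% in WT (nucleotide 39, 0.756% in NSun2 -/-) and 3.95% in NSun2 -/- (nucleotide 25, 1.70% in WT). Deletions at these other nucleotides, counted apart, reached 8.72% in WT and 4.37% in NSun2 -/- at nucleotide 41, and 7.13% and 7.10% at nucleotides 8 and 10. Those at nucleotide 27 are given below. Nucleotides 9 and 10 are both G, so a deletion placed at 10 could equally be placed at 9. Reads with it counted as unsubstituted at nucleotide 9.

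At nucleotide 9 the substituted share was 43.2%, 37.8%, 34.7% and 38.1% in WT and 28.7%, 26.7%, 30.5% and 36.6% in NSun2 -/-, where the last lay within the WT range. The substitution was mainly G9T (28.3% of covering counts in WT and 20.2% in NSun2 -/-), with G9C at 7.06% and 6.57%.

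At nucleotide 27 it was 82.9%, 86.3%, 75.9% and 80.9% in WT and 72.3%, 75.3%, 74.2% and 74.7% in NSun2 -/-, without overlap. The base was T (G27T) in 75.1% of WT and 65.6% of NSun2 -/- counts, and absent from the read in 13.4% and 19.4%. The unchanged G was read in 5.15% and 6.48%. Within 5′ fragments alone the groups overlapped (70.3% and 68.0% substituted), as they did with each sequence counted once (83.4% and 80.4%), so the difference depended on which reads were counted. In deposited counts of all placed reads the genotypes also separated at nucleotide 25 (1.70% in WT and 3.95% in NSun2 -/-). The same held at nucleotides 39 (3.34% and 0.756%) and 69 (0.581% and 0%). Substituted shares were not compared in other families.

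At nucleotide 59, substituted bases averaged 89.3% ± 1.20 in WT libraries and 87.5% ± 2.79 in NSun2 -/- libraries (SD, n = 4 each), with overlap. With each sequence counted once they averaged 83.3% and 79.6%, without overlap, while in 3′ CCA fragments alone the genotypes overlapped (90.6% and 92.1%). How often other nucleotides or other families separate with each sequence counted once was not determined. A59T (50.8% in WT and 50.7% in NSun2 -/-) was more frequent than A59G (37.9% and 36.3%).

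**Figure D4:**
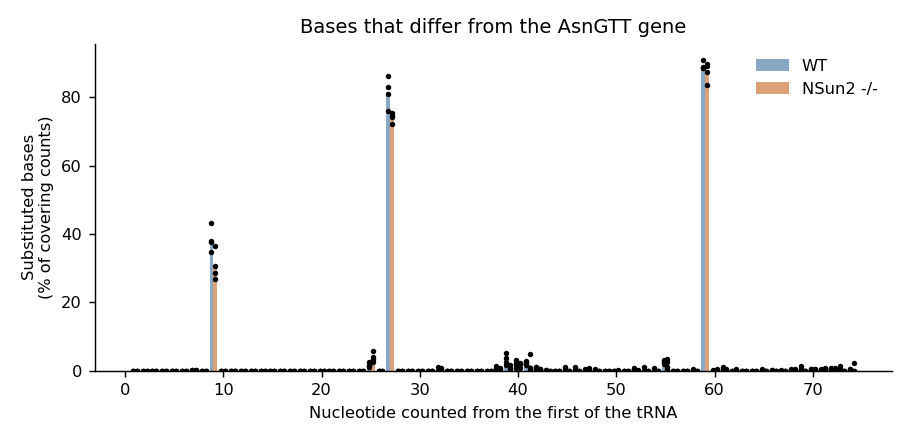
Percent of covering AsnGTT counts with a base other than that of the gene, along the tRNA, for nucleotides with at least 50 counts in every library. Bars are means of 4 libraries and points are libraries. Substitutions stand at nucleotides 9, 27 and 59, where the WT means are 38.5%, 81.5% and 89.3%.

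Full-length AsnGTT sequences appeared in the table only as precursors. These were reads with at least 2 nt of leader and 8 nt of trailer, a rule set after the table was seen. There were 3 such AsnGTT sequences, and each matched the genome at every base, nucleotides 9, 27 and 59 included. The search for precursors allowed at most 2 edits, so one substituted at all 3 of these nucleotides would not have been found. Capitals mark the leader and the trailer.

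Precursor with the flanks of chr3.trna294 and chr3.trna750, 91 nt: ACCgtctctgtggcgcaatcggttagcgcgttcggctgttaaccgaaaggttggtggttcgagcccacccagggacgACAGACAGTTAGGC
Precursor with the flanks of chr2.trna1947, 90 nt: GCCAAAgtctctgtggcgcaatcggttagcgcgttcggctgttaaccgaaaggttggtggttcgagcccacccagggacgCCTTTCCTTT

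The flanks of chr3.trna294 and chr3.trna750 are identical over 25 nt on each side, so those 2 genes cannot be told apart. Their precursor was listed in 2 forms, of 91 and 92 nt, which together had 25, 32, 41 and 55 counts in WT and 4, 3, 3 and 1 counts in NSun2 -/- (38.3 ± 12.9 and 2.75 ± 1.26, SD, n = 4 each). Relative to sequencing depth (CPM) this was 1.84 ± 0.446 in WT and 0.117 ± 0.0634 in NSun2 -/-. The chr2.trna1947 precursor had 5, 7, 7 and 6 counts in WT and 4, 3, 7 and 9 counts in NSun2 -/-, and the genotypes overlapped. Precursors of the same kind were listed for 8 families, and in 62.5% of these all NSun2 -/- libraries lay below all WT libraries. Over the 7 other families they had 354 ± 99.6 counts in WT and 165 ± 44.2 counts in NSun2 -/- (SD, n = 4 each). The precursor with the lower counts in NSun2 -/- carried the flanks of 2 loci, which does not show which of them it came from. The mean WT Pol III signal of each did not exceed the WT input. The precursor of the bound gene chr2.trna1947 overlapped between genotypes. Only sequences with at least 20 counts over the 8 libraries were listed. The NSun2 -/- counts of the chromosome 3 precursor alone would not have reached that, so it was listed through its WT counts, and its difference carries no test.

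**Figure D5:**
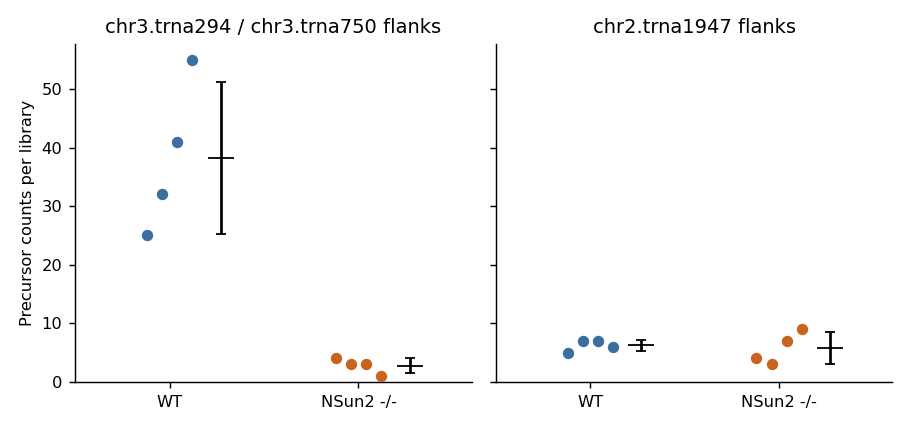
Counts of AsnGTT precursor sequences per library, for the flanks shared by chr3.trna294 and chr3.trna750 (left) and for those of chr2.trna1947 (right). Points are libraries, with the mean and SD (n = 4) beside them. On the left the WT libraries have 25 to 55 counts and the NSun2 -/- libraries 1 to 4, and on the right both genotypes lie between 3 and 9.

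The 3 other tRNAs with a guanosine that can become queuosine were set beside AsnGTT. The edgeR log2 fold change of 5′ fragments was 1.11 ± 0.21 for HisGTG, 0.35 ± 0.40 for TyrGTA and -0.71 ± 0.40 for AspGTC (SE, n = 4 against 4), beside 1.22 ± 0.33 for AsnGTT. The end 2 bases before the anticodon, at which AsnGTT differed between genotypes, held 21.1% ± 8.18 of TyrGTA 5′ fragments in WT and 47.1% ± 6.23 in NSun2 -/- (SD, n = 4 each), without overlap. SerGCT, which has no queuosine, was the third of the 3 families wholly above WT at this end, with 38.5% ± 10.5 in WT and 58.4% ± 7.10 in NSun2 -/- (SD, n = 4 each), and its ends inside the anticodon were 25.9% ± 7.39 in WT and 8.52% ± 1.23 in NSun2 -/-, again without overlap. The end 2 bases before the anticodon held 12.5% in WT and 11.8% in NSun2 -/- of those of AspGTC, with overlap, and 1.62% and 1.93% of those of HisGTG. Ends inside the anticodon were 25.5% in WT and 38.8% in NSun2 -/- for AspGTC, 2.13% and 1.32% for HisGTG and 0 in all libraries for TyrGTA.

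Over the 8 libraries, the families whose 5′ fragment level (log2 CPM) was most like that of AsnGTT among 39 were ValCAC (r = 0.85), ThrTGT (r = 0.81) and ValAAC (r = 0.80). These are Pearson correlations over libraries that share their depth and genotype, given as a description. The 5′ fragments of ValCAC, the most abundant of these, made up 4.17% ± 1.05 of all counts in WT and 10.3% ± 5.73 in NSun2 -/- (SD, n = 4 each).

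Bisulphite sequencing reads cytosines that resist conversion, such as methylated ones, as cytosine. It gave no comparison for AsnGTT. No WT library listed a cytosine within a placed AsnGTT locus, of 156018 to 196679 cytosines listed in each. NSun2 -/- libraries 1, 2 and 4 listed 22, 10 and 10, and library 3 listed none, of 110324 to 665049 in each. These were 22 positions in chr2.trna1947 and chr5.trna1043, each with 11 to 24 reads. In chr2.trna1947 the unconverted share had a median of 70.2%, 76.9% and 57.5% in those 3 libraries and ran from 26.7% to 92.3%. In chr5.trna1043 it ran from 45.5% to 66.7% in the first NSun2 -/- library. Every listed cytosine within these genes had unconverted reads in NSun2 -/- skin, and whether it would in WT could not be compared. The paper describes keeping reads with a unique best alignment, whereas 9 of the loci share the same sequence. In its tRNA analysis it also dropped reads with many unconverted cytosines. Whether the NSun2 -/- values or the empty WT lists reflect methylation of the mature tRNA was not tested. Downstream of the genes the values were mixed. In chr5.trna1043, 2 cytosines 9 and 10 nt past the end had 0 of 12 unconverted reads, which allows a share of up to 25% by counting error alone, whereas nucleotide 76 had 72.7%. In chr2.trna1947, nucleotides 75 and 76 had 46.2% to 92.3% over the 3 libraries, and nucleotide 87 had 69.2% and 75% in libraries 1 and 4.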

How the data were processed

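tRNA sequencing, RNA bisulphite sequencing and Pol III chromatin immunoprecipitation of mouse skin were analysed. Counts are the authors' read counts per gene, or per gene and read sequence, deposited without normalisation after Bowtie alignment to mm9. Up to 2 mismatches were tolerated, reads with several matches were distributed over them, and CCA ends were trimmed from unaligned reads. Bisulphite files hold the percent of unconverted reads per cytosine, computed by the authors from counts deposited beside it, after Bismark 0.7.6 per the labels. Listed positions fell on mm9 cytosines once 1 was added.

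Members and lists were chosen with earlier results of these data known. Gene names were tied to coordinates through the study's gene tables, and sequences were read from NCBIM37 (mm9). Each listed sequence was placed in either orientation on its family's genes (edlib 1.3.9.post1, at most 4 edits). For AsnGTT, 43.1% of counts were listed in reverse complement. Counts were summed by isoacceptor family and fitted with edgeR 4.0.16 (R 4.3.3, TMM, filterByExpr, quasi-likelihood), tested on simulated data; DESeq2 1.42.0 was an alternative. AsnGTT values carry no p, because the choice of members used these contrasts. The named-gene rule asked for every AsnGTT gene with counts; the 58 genes outside the placed loci are given by count and range. Reads without molecular identifiers are not independent molecules, so intervals cover counting error only.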

Additional observations from a re-analysis of the deposited data

Results flagged for a closer look

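In 46 groups of 4 libraries checked for a library far from the rest (Dixon's criterion, which chance meets in about 1 of 20 groups), 3 held one. The second NSun2 -/- library had 0.0451% of its counts in the AsnGTT family, below 0.0887% to 0.0939% in the other 3, and it was also the library with the most counts. The same library had 19.8% of its 3′ CCA fragments starting at nucleotide 36, above 15.8% to 16.3% in the other 3. The first WT library had 91.0% substituted bases at nucleotide 59, above 88.5% to 88.9% in the other 3.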

How the results depend on the processing

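Of 83 alternative values, 76 kept the direction of the reported value and moved by less than the spread between replicates (counts, by at most 1.5 times). The exceptions were 3′ CCA fragments scaled to library totals (log2 fold change -1.08, reversed from 0.26), the share of 5′ fragments ending at nucleotide 33 (a difference of 18.0 percentage points) with no mismatch allowed (3.13) or with each listed sequence weighted equally (2.03), and the mismatch differences at nucleotides 27 and 59. At nucleotide 27 the difference of -7.39 points was -2.35 in 5′ fragments, -2.99 with each read sequence counted once, and 0.0809 in 3′ CCA fragments. At nucleotide 59 the difference of -1.75 points was 1.51 in 3′ CCA fragments. The first of these changes only the scaling, and the others use fewer or differently weighted reads; the cause was not tested further. The count with each sequence once and the 3′ CCA and internal splits were chosen after seeing the data. Leaving out 1 library gave 1.07 to 1.504 for 5′ fragments, 0.09 to 0.42 for 3′ CCA fragments, 13.7 to 20.1 points for the end at 33, -9.81 to -6.24, -9.25 to -5.79 and -2.54 to -0.47 points at nucleotides 9, 27 and 59, and 0.09 to 0.76 for Pol III. The 3′ CCA value of 0.09 came without the first WT library and that of 0.42 without the second, and the smallest difference at nucleotide 59 without the second NSun2 -/- library. Without the comparison with the input, 9 AsnGTT genes counted as bound instead of 6. Replicate numbers were shared by the genotypes but were not taken as pairs in the main fit. Same-numbered deviations correlated at -0.40, -0.49, 0.15 and -0.37 over 41 families, which does not settle whether the libraries were paired. With the replicate block the log2 fold changes were 1.10 for 5′ and 0.26 for 3′ CCA fragments. The alternatives planned for mature reads and for cytosines gave no value, since no mature AsnGTT read was listed (with or without CCA) and 0 cytosines had coverage in both genotypes. Depth limits the Pol III inputs (15918 and 14483 reads) and the bisulphite values (11 to 24 reads each).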
